A study of Mus musculus with 4 samples.

Results

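Interferon-stimulated genes were compared between splenic Esam dendritic cells (DC) with and without the transcription factor Runx3. The set lists 49 genes, and a gene was measured when a probe set carrying its symbol alone reached a log2 value of 6.5 on at least 1 array. Of the 49 genes 42 were measured, among 9894 genes in all, each through its brightest probe set. Ifi204, Gbp2, Igtp, Irgm2 and Isg15 lie on probe sets annotated with several genes and were not read, and Mndal and Ifi44 were not listed in the annotation used here. No member with its own probe set stayed below 6.5 on every array, and the lowest value of any measured member was 6.73 (Mx2 on the cKO array of litter 1). The rule itself used no difference between genotypes, though the list was drawn up with earlier results of these data known.

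The cells came from spleens of 4 mice aged 6 weeks and were hybridised to 1 array each. The 2 mice called wt carry the label DCRunx3 +/+, and the 2 called cKO the label DCRunx3 -/-. In cKO mice a floxed Runx3 gene was deleted by Cre under the CD11c promoter (Runx3fl/fl/CD11c:Cre), so deletion was aimed at CD11c-expressing cells and not at Esam DC alone. The study's legends describe its controls as Runx3fl/fl, and whether the wt mice of these arrays carried Cre is not stated there. Each of 2 litters gave 1 mouse of each genotype. All 4 mice are labelled male, but the arrays of litter 1 had Xist, the RNA that coats the inactive X chromosome, at 12.75 and 12.78, against 5.15 and 5.19 in litter 2, so litter and this sex-linked split cannot be told apart. The Runx3 probe set was at 11.37 and 11.51 in wt and at 11.47 and 11.45 in cKO, and whether it covers the deleted part is not given, so it does not check the labels. Array medians lay between 6.58 and 6.62. Of 10 Esam DC markers all were measured, with list means between 11.50 and 11.55 on the 4 arrays. These means average opposed shifts. Both cKO arrays lay above both wt arrays for 5 markers, Esam and Cd4 among them (50%, against 17.1% of all genes). They lay below for 4, Irf4 and Zbtb46 among them (40%, against 28.3%). None of the 10 changed 1.5-fold. Values below are log2 values after robust multichip averaging (RMA), a difference is the cKO mean less the wt mean in log2 units, and every test rests on 2 mice per genotype. RMA values of different probe sets are not comparable as levels, so each gene, or each list of markers, is set only against itself between arrays.

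Interferons are cytokines of antiviral defence that cells also make at a low, tonic level. Type I interferon binds the Ifnar receptor, whose kinases Jak1 and Tyk2 activate a complex holding Stat2 and Irf9 that binds the interferon-stimulated response element (ISRE), whereas type II interferon acts through Ifngr and gamma-activated sites (GAS). DC respond to both, and some of the genes induced, such as the Ifit and Oas families, mainly block viral RNA, whereas guanylate-binding proteins act on membranes of intracellular pathogens.

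The promoters of 6 members are shown first: Ifi205 and Ifitm1, which passed the study's thresholds between genotypes, the 3 genes of the Ifit family, and Gbp7, which differed most between litters. RefSeq (build GRCm38.p6) gave promoter windows, 250 bases before to 50 bases after the start, for 32 of the 42 measured members. Only the 250 bases before the start are printed, 5′ to 3′, in lower case. Capitals mark matches to ISRE, searched as GAAA, any 2 bases and GAAA, or to the RUNX letters TGTGGT or TGCGGT. Both strands were searched, so an ISRE on the other strand reads TTTC, any 2 bases and TTTC, and a RUNX match reads ACCACA or ACCGCA.
Ifi205 (chr1:174031756-174032005, minus strand): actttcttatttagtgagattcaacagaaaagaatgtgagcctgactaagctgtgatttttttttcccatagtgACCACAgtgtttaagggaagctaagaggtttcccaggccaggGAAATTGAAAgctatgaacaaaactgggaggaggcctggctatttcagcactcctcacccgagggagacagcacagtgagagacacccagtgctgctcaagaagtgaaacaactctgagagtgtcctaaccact
Ifitm1 (chr7:140967826-140968075, plus strand): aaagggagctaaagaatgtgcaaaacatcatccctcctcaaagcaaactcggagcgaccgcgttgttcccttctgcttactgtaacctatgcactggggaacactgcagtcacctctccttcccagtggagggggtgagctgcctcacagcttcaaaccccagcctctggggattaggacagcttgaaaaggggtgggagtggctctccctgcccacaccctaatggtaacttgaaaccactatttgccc
Ifit1 (chr19:34640639-34640888, plus strand): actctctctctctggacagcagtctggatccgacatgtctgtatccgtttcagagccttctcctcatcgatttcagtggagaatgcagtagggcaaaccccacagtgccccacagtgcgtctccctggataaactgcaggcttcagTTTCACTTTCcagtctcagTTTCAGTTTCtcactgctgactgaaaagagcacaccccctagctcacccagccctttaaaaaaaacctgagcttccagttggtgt
Ifit2, window 1 (chr19:34550444-34550693, plus strand): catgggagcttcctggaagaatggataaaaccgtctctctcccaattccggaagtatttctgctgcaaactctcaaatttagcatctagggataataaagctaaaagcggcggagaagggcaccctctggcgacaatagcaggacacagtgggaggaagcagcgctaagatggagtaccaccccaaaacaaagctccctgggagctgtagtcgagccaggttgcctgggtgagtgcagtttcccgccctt
Ifit2, window 2 (chr19:34550838-34551087, plus strand): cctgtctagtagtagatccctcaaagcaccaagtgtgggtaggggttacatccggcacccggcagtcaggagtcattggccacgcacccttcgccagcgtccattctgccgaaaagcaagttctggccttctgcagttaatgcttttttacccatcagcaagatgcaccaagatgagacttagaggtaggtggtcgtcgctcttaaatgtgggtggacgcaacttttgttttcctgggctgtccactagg
Ifit3 (chr19:34583279-34583528, plus strand): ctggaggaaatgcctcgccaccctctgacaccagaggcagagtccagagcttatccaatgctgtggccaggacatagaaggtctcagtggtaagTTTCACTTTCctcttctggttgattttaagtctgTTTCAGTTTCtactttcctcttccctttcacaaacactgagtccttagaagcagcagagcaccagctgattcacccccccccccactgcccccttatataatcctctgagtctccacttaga
Gbp7 (chr3:142530086-142530335, plus strand): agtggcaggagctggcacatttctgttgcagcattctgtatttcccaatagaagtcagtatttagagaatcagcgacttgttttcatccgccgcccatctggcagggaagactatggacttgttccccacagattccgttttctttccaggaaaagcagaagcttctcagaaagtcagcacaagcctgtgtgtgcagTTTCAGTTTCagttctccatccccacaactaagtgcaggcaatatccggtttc

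Ifi205 had 1 ISRE match in this stretch, starting 134 bases before the start, and 1 RUNX match. Ifit1 had ISRE matches 104 and 85 bases, and Ifit3 156 and 122 bases, before the start. Ifit2 has 2 windows, and neither held an ISRE or RUNX match. Its window 1 held a match to GAS (TTCNNNGAA, the same on both strands), 241 bases before the start. No letters of ISRE, RUNX or GAS were found in the window of Ifitm1. Gbp7 had 1 ISRE match, 53 bases before the start, and 2 GAS matches. Over whole windows, an ISRE match was held by 17 of the 32 members with a window (53.1%) and by 3.99% of 27025 genes. A GAS match was held by 7 of 32 (21.9%) against 9.55%, and a RUNX match by 9 of 32 (28.1%) against 25%. Matches to ISRE may overlap each other, and a match describes letters only, not a site that is bound.

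Of the 5 families compared, Ifi200 and Ifitm held 1 called gene each, and Ifit, Oas and the guanylate-binding family held none. Ifi205 and Ifitm1 were 2.14-fold and 2.01-fold higher in cKO, whereas the 3 Ifit genes, none of which passed, had differences of -0.64 (Ifit3), -0.54 (Ifit2) and -0.34 (Ifit1). The members of the Oas and guanylate-binding families had both signs, with medians of -0.05 and -0.07, while their relatives outside the set, given below, were mostly lower by sign. By median the Ifi200 group was at 0.51 (2 genes, which lay far apart), Ifitm at 0.45 (3 genes) and Ifit at -0.54 (3 genes), against -0.03 over all 9894 genes. No difference between these families was tested, since family members are not replicates.

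**Figure D1:**
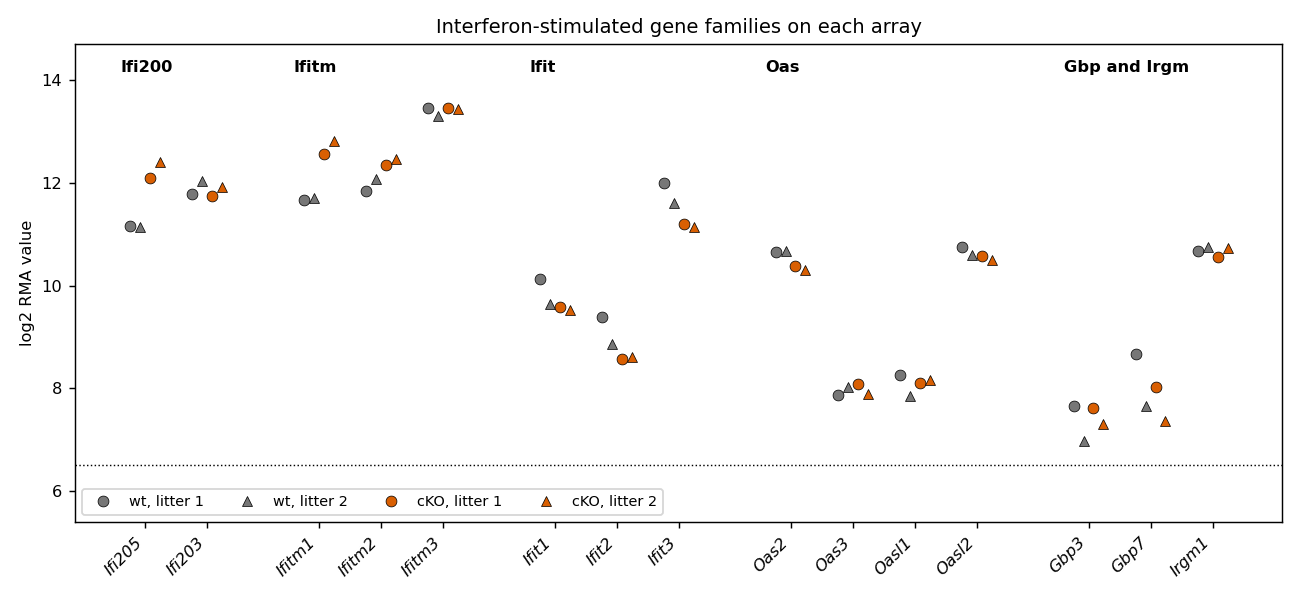
Log2 RMA value (y axis) of 15 measured members of 5 families on each of the 4 arrays. Grey is wt, orange cKO, circles litter 1 and triangles litter 2, and the dotted line is the limit of 6.5. Ifi205 and Ifitm1 lie above both wt arrays in cKO, and Ifit1, Ifit2 and Ifit3 below them.

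The study called a gene when it changed 1.5-fold or more in either direction and its one-way test gave a p, without adjustment, no higher than 0.05. These thresholds were passed by 2 of 42 members, Ifi205 and Ifitm1, both higher in cKO (4.76%). Over all genes 1.39% passed as higher and 0.455% as lower. None of the 42 members passed limma's adjusted threshold of 0.05, and neither did any gene (0%). At an unadjusted p under 0.05 in limma, 3 members were higher (7.14%, against 5.37% of all genes) and 3 lower (7.14%, against 4.92%), shares that lie near those of all genes. With the litter as a block neither Ifi205 nor Ifitm1 passed the study's thresholds any longer, with their differences unchanged. The block leaves a single degree of freedom for the spread, against 2 without it. Without wt replicate 1 they did not pass either (1.11 and 0.98), nor without wt replicate 2 (1.09 and 1.03), whereas both passed when either cKO array was left out.

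The Ifi200 family encodes HIN domain proteins, several of which bind DNA or act in the nucleus. Ifi205 was at 11.15 and 11.14 in wt and at 12.09 and 12.40 in cKO. Both cKO arrays lay above both wt arrays, by 0.94 within litter 1 and by 1.26 within litter 2, and the mean difference was 1.10 (standard error 0.13, limma, adjusted p = 0.209, or 0.283 with the litter as a block). Ifi203, which lies in the same gene cluster, was at 11.79 and 12.03 in wt and at 11.75 and 11.92 in cKO, a difference of -0.08 with overlapping genotypes. Paralogs of this family are similar in sequence, and the part of cross-hybridisation in these values was not tested. Of relatives outside the set, Aim2, a sensor of cytosolic DNA, and Ifi209 differed by 0.07 and -0.04, also with overlapping genotypes.

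Ifitm proteins are small membrane proteins that hinder the entry of enveloped viruses, and all 3 were higher in cKO by sign. Ifitm1 was at 11.66 and 11.71 in wt and at 12.56 and 12.82 in cKO, with a difference of 1.00 (standard error 0.12, limma, adjusted p = 0.209, or 0.282 with the litter as a block). A further Ifitm1 probe set, which was not the brightest, differed by 1.38 and also passed the study's thresholds. Ifitm2 was at 11.84 and 12.07 in wt and at 12.34 and 12.47 in cKO. Its genotypes did not overlap, and the difference of 0.45 did not pass, whereas its other probe sets differed by 0.36 and 0.67, the latter past the thresholds. Ifitm3 was at 13.45 and 13.30 in wt and at 13.45 and 13.44 in cKO, with overlapping genotypes and a difference of 0.07. For Ifitm1 and Ifitm2 the sign was the same on every probe set.

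Some markers of other spleen cells were also higher in cKO. For the counts below, the share of all genes that passed the study's thresholds was 1.39% as higher and 0.455% as lower. Of 10 cDC1 markers, which belong to the CD8-expressing cross-presenting DC (the sort used CD11c, MHCII, Esam, CD4 and CD8), 7 passed the study's thresholds, all higher in cKO, while Batf3 and Wdfy4 lay lower on both cKO arrays (-0.29 each) without passing. The summed level of the 10, as log2 of the sum of linear values, was 13.93 to 14.00 in wt and 14.57 to 14.64 in cKO. The median difference of these markers was 1.05. Such a sum follows the brightest probe sets of its list and only sets the arrays against each other. Of 7 measured monocyte markers 3 passed, all higher, with summed levels of 12.81 to 12.91 in wt and 13.35 to 13.50 in cKO. Among these 3, Ccr2 was at 6.18 and 6.03 in wt and at 6.86 and 6.67 in cKO. It thus met the limit of 6.5 through cKO alone, and could enter only as higher. Of 10 red pulp macrophage markers 2 passed, both higher, with summed levels of 13.13 to 13.53 and 13.76 to 13.93. For plasmacytoid DC 1 of 7 passed, Cox6a2, which was higher in cKO (2.68). By sign 6 of the 7 were higher and 1 lower, Bst2 (-0.12), whose genotypes overlapped. Summed levels of the list were 11.44 to 11.66 in wt and 12.11 to 12.13 in cKO. None of 3 measured B cell markers passed, with summed levels of 10.91 to 11.55 in wt and 11.55 to 11.81 in cKO. Nkg7 (0.76), the only NK cell marker measured, did not pass either. It was at 6.15 and 5.44 in wt and at 6.81 and 6.31 in cKO, so it met the limit of 6.5 through cKO alone. The T cell and neutrophil markers with a probe set of their own stayed below 6.5 on every array, including Cd3e and S100a8. So did the NK cell markers Ncr1 and Klrb1c, at no more than 5.28 and 4.85, and the B cell marker Pax5 (6.24). The part of other cells in the Ifi205 and Ifitm1 values was not tested. In RNA of a sorted population, a change in the number of cells of a type and a change in RNA per cell cannot be told apart.

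Ifit proteins bind viral RNA and hold back its translation. Ifit3 was at 12.00 and 11.60 in wt and at 11.20 and 11.13 in cKO. Ifit2 was at 9.39 and 8.86 in wt and at 8.57 and 8.61 in cKO. For Ifit1 the wt arrays were at 10.12 and 9.65 and the cKO arrays at 9.58 and 9.52. In each of the 3 genes both cKO arrays lay below both wt arrays, as they did for 28.3% of all genes. The wt array of litter 1 was the highest in each, as it was for 41.2% of all genes. The differences were -0.64 for Ifit3 (standard error 0.16, limma, adjusted p = 0.407), -0.54 for Ifit2 (0.20, adjusted p = 0.535) and -0.34 for Ifit1 (0.18, adjusted p = 0.675), and none passed the study's thresholds. The median of the family was -0.81 within litter 1 and -0.25 within litter 2. Leaving out wt replicate 1 moved it to -0.28, and leaving out wt replicate 2 to -0.80, so its size, though not its sign, rested on which wt array was kept. Ifit3b, a close copy of Ifit3 outside the set, was at 8.08 and 7.60 in wt and at 7.46 and 7.36 in cKO (named after its values were seen).

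Oas enzymes sense double-stranded RNA and make the second messenger that activates RNase L, and Oasl proteins are related to them. Oas2 was at 10.66 and 10.67 in wt and at 10.38 and 10.31 in cKO. This was a small difference with little spread (-0.32, standard error 0.09), which did not reach the fold limit or the adjusted threshold (limma, adjusted p = 0.419). Oasl2 was at 10.75 and 10.60 in wt and at 10.57 and 10.50 in cKO, again without overlap (-0.14). Oas3 was at 7.87 and 8.02 in wt and at 8.09 and 7.89 in cKO, and Oasl1 at 8.26 and 7.85 in wt and at 8.11 and 8.16 in cKO. For the last pair the genotypes overlapped, and the sign of the difference was opposite in the 2 litters. Of the relatives outside the set, Oas1a, Oas1b and Oas1c differed by -0.35, -0.30 and -0.21 (named after their values were seen). Each was without overlap, as 28.3% of all genes were in this direction, and none passed the thresholds.

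Guanylate-binding proteins (Gbp) and immunity-related GTPases (Irgm) attack vacuoles that hold pathogens. In litter 1 Gbp7 read 8.67 for wt with 8.02 for cKO, and in litter 2 it read 7.66 for wt with 7.37 for cKO. Gbp3 read 7.65 for wt with 7.61 for cKO in litter 1, then 6.98 for wt with 7.30 for cKO in litter 2. In both genes each array of litter 2 lay below each array of litter 1 (20.6% of all genes did so), whereas the genotypes overlapped. The genotype difference was -0.47 for Gbp7 (standard error 0.42) and 0.14 for Gbp3 (0.27). Irgm1, which regulates the other GTPases of its family, was at 10.68 and 10.75 in wt and at 10.55 and 10.74 in cKO, a difference of -0.07. The median of the 3 genes turned from -0.07 to 0.04 without wt replicate 1, and no direction is read from it. Of the relatives outside the set (named after their values were seen), Gbp4, Gbp8 and Gbp9 differed between genotypes by -0.36, -0.29 and -0.20. Each was without overlap, as 28.3% of all genes were in this direction. Between litters these 3 differed by -0.11, 0.10 and -0.06. Gbp5 differed by 0.14 between genotypes, with overlap, and by -0.57 between litters. None of these 4 genes passed the thresholds.

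Among the 27 measured members outside these families none passed the study's thresholds. All 5 nucleic acid sensors were lower in cKO by sign, with differences from -0.05 for Ddx58, the RIG-I gene, to -0.32 for Dhx58. Ifih1, which encodes the RNA sensor MDA5, was at 11.04 and 10.82 in wt and at 10.67 and 10.62 in cKO (-0.28, limma, adjusted p = 0.558). Both cKO arrays lay below both wt arrays for Ifih1 and Dhx58 (40% of the 5, against 28.3% of all genes). The genotypes of Ddx58, Zbp1 and the kinase gene Eif2ak2 overlapped. The median of the 5 was -0.25, and -0.08 without wt replicate 1. Zbp1, a sensor of Z-form nucleic acid, was at 9.91 and 9.58 in wt and at 9.69 and 9.31 in cKO (-0.25), and Eif2ak2 differed by -0.16.

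Antiviral effectors held members of both signs. Samd9l, which restricts poxviruses, was at 10.84 and 10.56 in wt and at 10.99 and 11.01 in cKO (0.30, limma, adjusted p = 0.587). Mx2, a dynamin-like GTPase, was at 7.32 and 6.99 in wt and at 6.73 and 6.94 in cKO (-0.32, limma, adjusted p = 0.643). Samd9l thus lay higher, and Mx2 lower, on both cKO arrays. Rsad2, which encodes the radical SAM enzyme viperin, read 8.61 and 7.76 in wt and 8.60 and 8.70 in cKO, so the wt array of litter 2 stood lowest. Rsad2 and its neighbour gene Cmpk2, a nucleotide kinase, differed by 0.46 and 0.27, nearly all of it in litter 2 (0.94 and 0.53, against -0.01 and 0.02 in litter 1). Mx1 (-0.07) and the exonuclease gene Isg20 (-0.15) had overlapping genotypes. For Samhd1, a dNTP hydrolase, the difference was -0.02.

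Usp18, the protease that removes Isg15 and also damps the type I receptor, was at 11.34 and 10.98 in wt and at 10.84 and 10.79 in cKO, without overlap (-0.35, limma, adjusted p = 0.59). In the signalling group, Parp14, an ADP-ribosyltransferase, was at 11.02 and 10.79 in wt and at 10.67 and 10.59 in cKO (-0.28), while Dtx3l, the ubiquitin ligase partner of Parp9, was at 10.65 and 10.36 in wt and at 10.54 and 10.57 in cKO (0.05). Stat2 differed by -0.17 and Parp9 by -0.12. Of the ubiquitin ligase genes of the Trim family, Trim21, the cytosolic antibody receptor, was at 9.81 and 9.65 in wt and at 9.33 and 9.41 in cKO (-0.36, limma, adjusted p = 0.44), and lay lower in cKO in both litters. Trim25, which acts on RIG-I, was at 10.42 and 10.67 in wt and at 10.48 and 10.69 in cKO (0.04), and Trim30a differed by 0.00. Of the remaining members Rtp4 was at 11.26 and 10.76 in wt and at 10.70 and 10.59 in cKO (-0.36), without overlap. The secreted glycoprotein gene Lgals3bp was at 11.03 and 10.31 in wt and at 10.93 and 10.72 in cKO (0.16), with overlap. The other 5 ranged from -0.03 for the lysosomal reductase gene Ifi30 to -0.23 for Xaf1, with Sp100 at -0.12, Ifi35 at -0.14 and Ifi27 at -0.16.

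**Figure D2:**
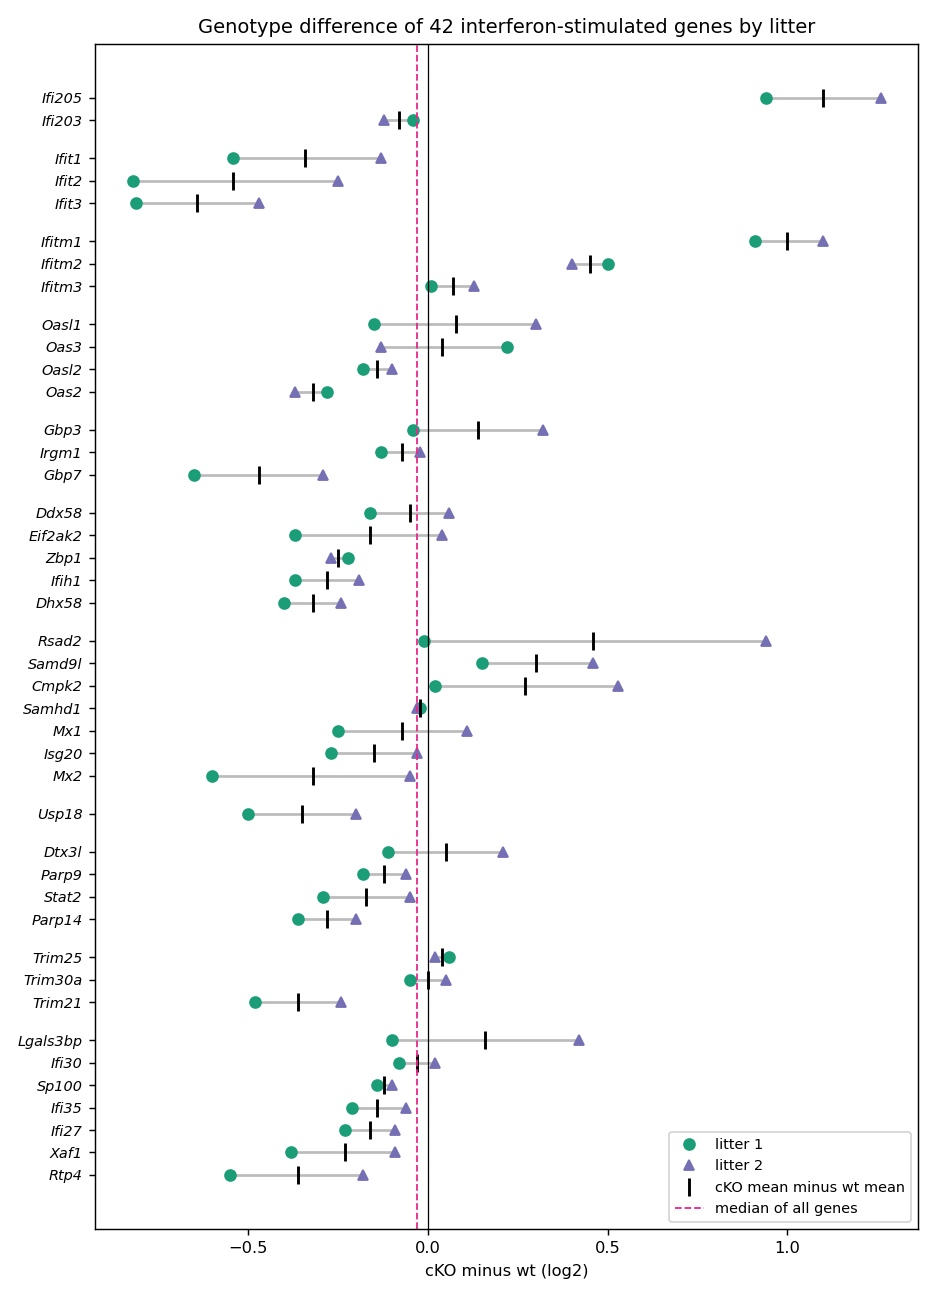
Difference cKO minus wt (log2, x axis) of each of the 42 measured members, by group from top to bottom, within litter 1 (green circles), within litter 2 (violet triangles) and between genotype means (black bars). The dashed line is the median of all 9894 genes, -0.03. Ifi205 and Ifitm1 lie near 1 in both litters, and the Ifit genes lie left of 0, further in litter 1.

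As a whole the 42 members had a median difference of -0.12, against -0.03 over all genes. By sign 29 were lower in cKO (69%), against 57.6% of all genes. Both cKO arrays lay below both wt arrays for 17 members (40.5%), against 28.3% of all genes, and above them for 5 (11.9%), against 17.1%. The 5 were Ifi205, Ifitm1, Ifitm2, Cmpk2 and Samd9l. The size of this shift depended on which wt array was kept. Without wt replicate 1 the median was -0.03, against 0.00 over all genes, and 24 members were lower (57.1%), against 49.7% of all genes. Without wt replicate 2 the median was -0.21, against -0.05 over all genes, and 33 members were lower, with 64.4% of all genes lower. Within litter 1 the median was -0.18, against -0.06 over all genes, and within litter 2 it was -0.05, against 0.01. The sign of the difference was opposite in the litters for 11 members (26.2%), against 36.9% of all genes.

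The wt array of litter 1 was the highest of the 4 for 29 of 42 members (69%), against 41.2% of all genes. Relative to each gene's mean over the 4 arrays, its median member was at 0.17, whereas the medians of the other arrays lay between -0.07 and -0.03. Over all genes the corresponding median of that array was 0.04. The wt arrays differed from each other by a median of 0.25 over the members, against 0.13 over all genes, and the cKO arrays by 0.08 in both. All 5 sensors and all 3 Ifit genes had their highest value on that array. Ifi205 and Ifitm1 did not follow this pattern and had nearly equal wt values.

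**Figure D3:**
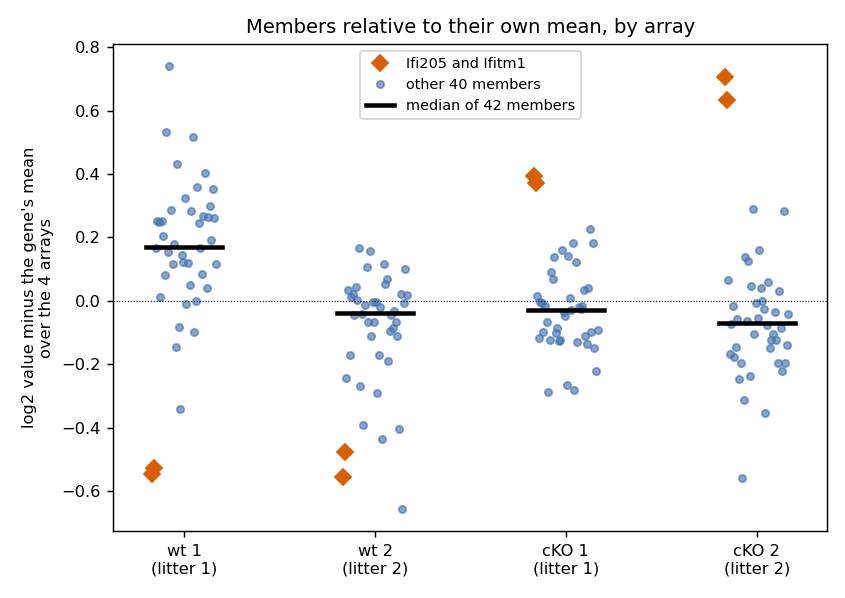
Log2 value of each of the 42 members minus its own mean over the 4 arrays (y axis), for each array (x axis, points spread sideways for display). Black bars are medians, 0.17 on wt 1 and -0.07 to -0.03 on the others, and the orange diamonds are Ifi205 and Ifitm1, low on both wt and high on both cKO arrays.

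Between litters, 36 of 42 members were lower in litter 2 (85.7%), against 57.6% of all genes, with a median of -0.13 against -0.02. The arrays of the litters also differed in Xist, so litter differences cannot be told apart from that sex-linked split. Both arrays of litter 2 lay below both of litter 1 for 11 members (26.2%), against 20.6% of all genes, and above them for 3 (7.14%), namely Ifi203, Irgm1 and Trim25, against 13.6%. The widest differences were those of Gbp7 (-0.83, standard error 0.13), Gbp3 (-0.49, 0.13), Lgals3bp (-0.47, 0.16), Rsad2 (-0.37, 0.27) and Zbp1 (-0.36, 0.09). In a limma fit with genotype and litter as terms none of the 42 members passed the adjusted threshold, against 0.0404% of all genes, and the smallest adjusted p of a member was 0.634. At an unadjusted p under 0.05, 3 members passed, against 5.38% of all genes. The 6 members that were higher in litter 2 were Ifi205, Ifi203, Ifitm1, Ifitm2, Irgm1 and Trim25.

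**Figure D4:**
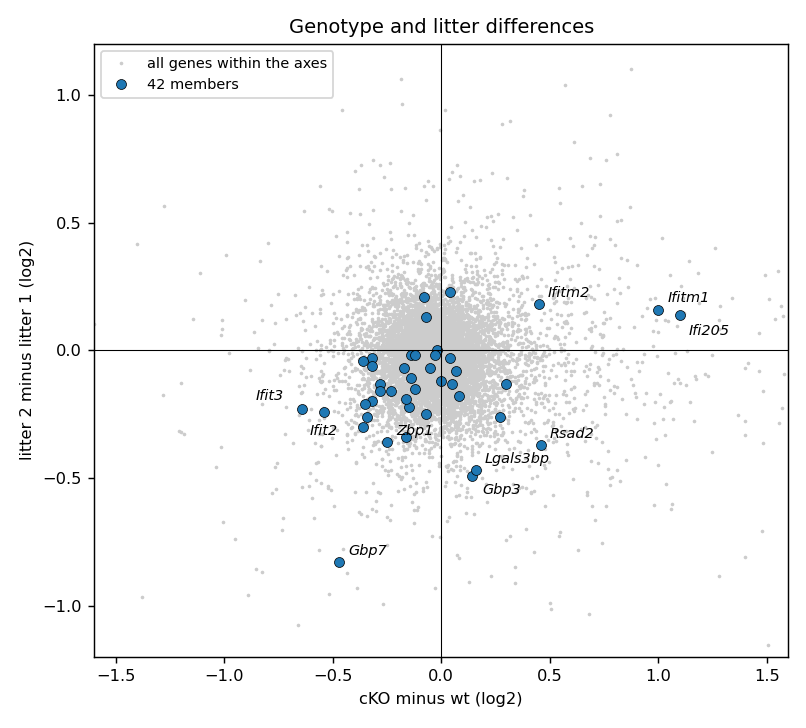
Difference between genotypes (x axis, cKO minus wt) against the difference between litters (y axis, litter 2 minus litter 1), both log2, for the 42 members (blue) and all genes within the axes (grey, with 25 genes outside). Gbp7 lies lowest, at -0.83 between litters, while Ifi205 and Ifitm1 lie far right at litter differences of 0.14 and 0.16.

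Genes that carry the interferon signal differed little. In the list of receptors and signalling genes 14 were measured, none passed the study's thresholds, and the differences ran from -0.18 to 0.17. Of the type I receptor genes, Ifnar1 read 10.70 and 10.74 in wt and 10.77 and 10.84 in cKO (0.09), and Ifnar2 read 12.10 and 12.14 in wt and 12.09 and 12.07 in cKO (-0.04). Irf9, the DNA-binding partner of Stat2, read 10.99 and 10.82 in wt and 10.88 on both cKO arrays (-0.02). Ifngr1 was at 12.82 and 12.84 in wt and at 12.98 and 13.04 in cKO, and Ifngr2 at 12.17 and 12.17 in wt and at 12.27 and 12.35 in cKO. The type II receptor genes were thus higher on both cKO arrays (17.1% of all genes were), by 0.17 and 0.14, without passing the fold limit. Tyk2, a kinase bound to the type I receptor, read 10.27 and 10.07 in wt and 9.97 and 10.02 in cKO (-0.18).

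Of 9 measured genes of interferon induction none passed either. Irf7, the factor that amplifies type I interferon, was at 10.68 and 10.34 in wt and at 10.05 and 10.10 in cKO, below both wt arrays (-0.43, standard error 0.14, limma, adjusted p = 0.494). Sting1, the adaptor of cytosolic DNA sensing, read 11.99 and 11.84 in wt and 12.07 and 12.10 in cKO (0.17). The kinase gene Tbk1 read 10.02 and 10.08 in wt and 9.96 and 9.94 in cKO (-0.10). The interferon genes themselves, Ifnb1, Ifna4 and Ifng, stayed below 6.5 on every array, at no more than 4.97, 4.87 and 5.42.

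Another 44 interferon-responsive genes outside the set were measured. By sign 31 were lower in cKO (70.5%, against 57.6% of all genes), with a median of -0.10, or -0.04 without wt replicate 1. The wt array of litter 1 was the highest for 29 of the 44 (65.9%, against 41.2% of all genes). Only Cxcl9, a chemokine induced by type II interferon, passed the study's thresholds (2.27%, against 1.39% of all genes as higher). It was at 10.84 and 10.44 in wt and at 11.73 and 11.90 in cKO (1.18). Lgals9, a galectin gene, was at 10.10 and 9.78 in wt and at 10.46 and 10.40 in cKO (0.49), and Gbp4 at 10.42 and 10.21 in wt and at 9.96 and 9.95 in cKO (-0.36), neither past the thresholds. Both genes had non-overlapping genotypes, in opposite directions.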

How the data were processed

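RNA of sorted splenic Esam DC from 4 mice was measured on Affymetrix mouse 1.0 ST arrays, 1 per mouse. The deposited values are log2 values that the authors computed in Partek with RMA and GC correction, already background-corrected and normalized between arrays, which can compress small differences. The processing notes name mm9. The methods say exon array, the platform annotation is gene level. Groups came from the labels: wt (n = 2) and cKO (n = 2).

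Of 35399 probe sets, 18889 reached 6.5 on at least 1 array and were tested, 10991 of them with 1 symbol. Symbols came from the platform annotation (21789 probe sets with 1, 1621 with several, 11989 not listed), and those with several were not named. Differences were tested with limma 3.58.1 in R 4.3.3 (lmFit, eBayes, two-sided, Benjamini-Hochberg over all tested probe sets) and with the methods' one-way test at an absolute fold of 1.5 and an unadjusted p of 0.05. Litter numbers pair the mice, as the labels state (deviations correlated at 0.27 across probe sets), and litter was a block in an alternative fit. The fit was tested on simulated data. Other alternatives were the low-value limit, scaling between arrays, the test, the probe set per gene and leaving out each array. No detection value was analysed, and only 2 mice per group limit the precision.

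Values on each array are given for all members of the 5 families, elsewhere for the member with the smallest unadjusted p per group and direction, for the 5 widest litter differences and, of each pathway list, for genes past the study's thresholds, the 3 with the smallest unadjusted p and a few receptor and factor genes. Members and lists were chosen with earlier results of these data known.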

Additional observations from a re-analysis of the deposited data

How the results depend on the processing

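With 1 probe set per gene, limma was both fitted and adjusted over the 9894 genes alone. In that setting 42 genes passed the adjusted threshold between genotypes and 13 between litters, in place of 0 and 5 probe sets. None of the 42 interferon-stimulated genes did so between genotypes, where the smallest adjusted p was 0.0575 (Ifi205 and Ifitm1, limma). Quantile normalization gave 1 probe set, and moderation with a trend 2. The study's thresholds called 267 probe sets. Taking the unadjusted p from limma gave 493, which added Ifit3 to the 2 members, and the count was 135 with the litter as a replicate block, where 0 members passed. The block fit kept 0 probe sets past the adjusted threshold. With 1 array left out, the lone array is assumed to vary like the other genotype. These counts ran from 113 to 281 probe sets at the study's thresholds, from 0 to 2 members, from 0 to 6 probe sets between litters (litter alone in the model), and stayed at 0 past the adjusted threshold, while the members' median ran from -0.21 to -0.03. Without wt replicate 2, Ifit2 (-0.80) and Ifit3 (-0.84) passed the study's thresholds and Ifi205 and Ifitm1 did not. The other settings (no filter, a mean of at least 6.5, centring, and the mean of a gene's probe sets) left these counts within 1.5 times and the members' median between -0.14 and -0.12. Group medians without 1 array, counts of lower members without 1 wt array and the litter model for 3 arrays were chosen after seeing the data.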
